A study of Mus musculus with 51 samples.

Results

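Endothelial cells line the blood vessels of a tumor, and 10 genes that mark them were followed here: Pecam1, Cdh5, Kdr, Flt1, Tek, Tie1, Emcn, Eng, Vwf and Angpt2. They were chosen by name and make up 10 of the 40077 genes in the tables. Each symbol stood at 1 gene only. RNA had been sequenced from 35 subcutaneous mouse tumors and from 16 cultures of Myc-CaP cells, a mouse prostate cancer line. The tumors formed 8 groups. B16-BL6 melanoma tumors, grown in female C57BL/6 mice, carried a control guide RNA (3 tumors) or a guide against Uba1, the enzyme that starts ubiquitin conjugation (sgUba1, 4 tumors). Myc-CaP tumors, grown in male FVB mice, carried the control guide (3) or sgUba1 (7), the empty vector (3) or a Uba1 overexpression vector (OE, 4), or came from mice given vehicle (6) or the UBA1 inhibitor TAK-243 (5). The mice were 6 to 8 weeks old when used. TAK-243 was given intravenously at 25 mg per kg, 2 times a week. The sgUba1 lines were sublines grown from single cells with part of their Uba1 left, so a guide and its clone cannot be told apart. Tumors were implanted in both flanks and the labels number tumors and not mice, so tumors of a group may share a mouse, and the p-values measure the spread between tumors. The cultures, 2 in each of 8 groups, were untreated Myc-CaP cells or cells given 50 nM TAK-243, and control guide or sgUba1 cells, each without and with interferon-γ (IFN-γ). Total counts ran from 8651963 to 35693092 per tumor and from 12860844 to 38032284 per culture, and the Myc-CaP guide and vector tumors were the shallowest, with at most 14168230.

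Vessels grow toward vascular endothelial growth factor (VEGF), which signals through the receptor tyrosine kinase encoded by Kdr. Flt1 encodes a second receptor that binds VEGF tightly, signals weakly and can act as a decoy. Tek (also called Tie2) encodes the receptor that reads the angiopoietins and, with its relative Tie1, holds vessels in a quiet state. Angpt2 encodes an angiopoietin that endothelial cells release themselves and that usually opposes this signal at growing or leaky vessels. Pecam1 and Cdh5 (VE-cadherin) encode adhesion proteins of the junctions between endothelial cells, Emcn a sialomucin of capillaries and veins, Eng (endoglin) a co-receptor for ligands of the TGF-β family, and Vwf the von Willebrand factor that tethers platelets. Pecam1 is also found on platelets and leukocytes, and Vwf in platelets and megakaryocytes. In whole tumors, fewer endothelial cells and less RNA per endothelial cell cannot be told apart.

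In GENCODE M21 (GRCm38) all 10 are protein-coding genes. Pecam1 lies on chromosome 11 (106654217 to 106750628, minus strand), Cdh5 on chromosome 8 (104101625 to 104144511, plus), Emcn on chromosome 3 (137341067 to 137432185, plus), Eng on chromosome 2 (32646595 to 32682669, plus) and Vwf on chromosome 6 (125546774 to 125686679, plus). Both VEGF receptor genes are on chromosome 5, Kdr at 75932827 to 75978458 and Flt1 at 147561604 to 147726011, each on the minus strand. Tek and its relative Tie1 are both on chromosome 4, Tek at 94739289 to 94874976 on the plus strand and Tie1 at 118471191 to 118490061 on the minus strand. Angpt2, on chromosome 8 (18690263 to 18741562, minus), lies within Mcph1 (18595131 to 18803189), which runs on the opposite strand, and whether the strand was used in the estimation is not given in the sources used here.

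Promoter sequence was found for 6 of the 10 genes in RefSeq (GRCm38.p6). The 4 receptor genes are shown, Kdr and Flt1 for VEGF, and Tek with its relative Tie1. Of these, Kdr, Flt1 and Tek enter the ratios given below. Each line gives the 200 bases before the start of the gene in RefSeq, 5′ to 3′ on the gene's strand. The windows are for Kdr at chr5:75978456-75978655 (minus), Flt1 at chr5:147726012-147726211 (minus), Tek at chr4:94739089-94739288 (plus) and Tie1 at chr4:118489850-118490049 (minus). For Kdr and Tie1 this start lies inside the GENCODE bounds above, and the whole Tie1 window lies inside them. Capitals mark GGAA or its reverse complement TTCC, the core that transcription factors of the ETS family, such as ERG and FLI1 of endothelial cells, bind.
Kdr: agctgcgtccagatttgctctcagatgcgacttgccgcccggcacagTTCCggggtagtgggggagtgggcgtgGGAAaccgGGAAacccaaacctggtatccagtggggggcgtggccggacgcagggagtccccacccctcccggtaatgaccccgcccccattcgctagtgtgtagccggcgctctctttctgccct
Flt1: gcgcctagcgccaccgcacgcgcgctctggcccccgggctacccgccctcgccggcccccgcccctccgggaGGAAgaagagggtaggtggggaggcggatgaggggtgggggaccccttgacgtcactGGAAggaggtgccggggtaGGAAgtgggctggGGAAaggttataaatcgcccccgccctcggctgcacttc
Tek: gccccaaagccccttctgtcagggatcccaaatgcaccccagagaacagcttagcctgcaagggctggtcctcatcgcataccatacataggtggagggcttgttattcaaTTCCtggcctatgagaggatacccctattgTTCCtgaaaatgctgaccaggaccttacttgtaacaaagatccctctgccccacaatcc
Tie1: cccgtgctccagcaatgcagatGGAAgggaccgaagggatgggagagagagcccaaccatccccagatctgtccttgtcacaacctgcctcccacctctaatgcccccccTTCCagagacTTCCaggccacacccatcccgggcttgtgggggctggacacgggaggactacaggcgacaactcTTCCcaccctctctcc

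The core occurred 3 times before Kdr, 4 times before Flt1, 2 times before Tek and 4 times before Tie1. It is a short and common motif: of 32851 promoter windows of this length, 89.0% held at least 1 copy on either strand, 41.0% held 3 or more and 21.5% held 4 or more. The windows also differed in base composition, from 51.5% G and C before Tek to 71.5% before Flt1. The matches describe letters in these windows and are not binding sites.

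The cultured cells gave the background for tumor cells without vessels. The submitters' tissue label reads the same for cells and tumors, and the members separated them. Emcn had 0 counts in all 16 cultures. Cdh5 and Tie1 were at 0 in 15 of 16 cultures and Kdr and Tek in 14 of 16, with at most 1 count in the others. Low counts of 5 members were present in the cultures: up to 48 counts for Pecam1, 28 for Flt1, 56 for Eng, 23 for Vwf and 28 for Angpt2. Each of the 10 genes was higher in all 28 Myc-CaP tumors than in all 16 cultures, on CPM (counts-per-million of the library total), a pattern that held for 10.5% of genes with at least 10 counts in these libraries. Over pooled libraries, Emcn was at least 700.3-fold higher in the Myc-CaP tumors, taking 3 counts over all cultures as the floor, a bound that covers counting error only. Among the members with counts in the cultures, the pooled level was 99.9-fold higher in tumors for Vwf, 62.9-fold for Pecam1, 52.8-fold for Flt1, 13.4-fold for Angpt2 and 11-fold for Eng. The Pecam1 background includes the TAK-243 cultures, which held 48, 28, 25 and 20 of its 165 counts. The Vwf tumor level includes the tumors labelled sgUba1, among them the library highest in Vwf, at 1693 counts. Folds without these libraries were not computed, so the order of the folds may depend on the libraries pooled. Cultured B16-BL6 cells were not among the samples, so no such background was measured for the melanoma model.

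**Figure D1:**
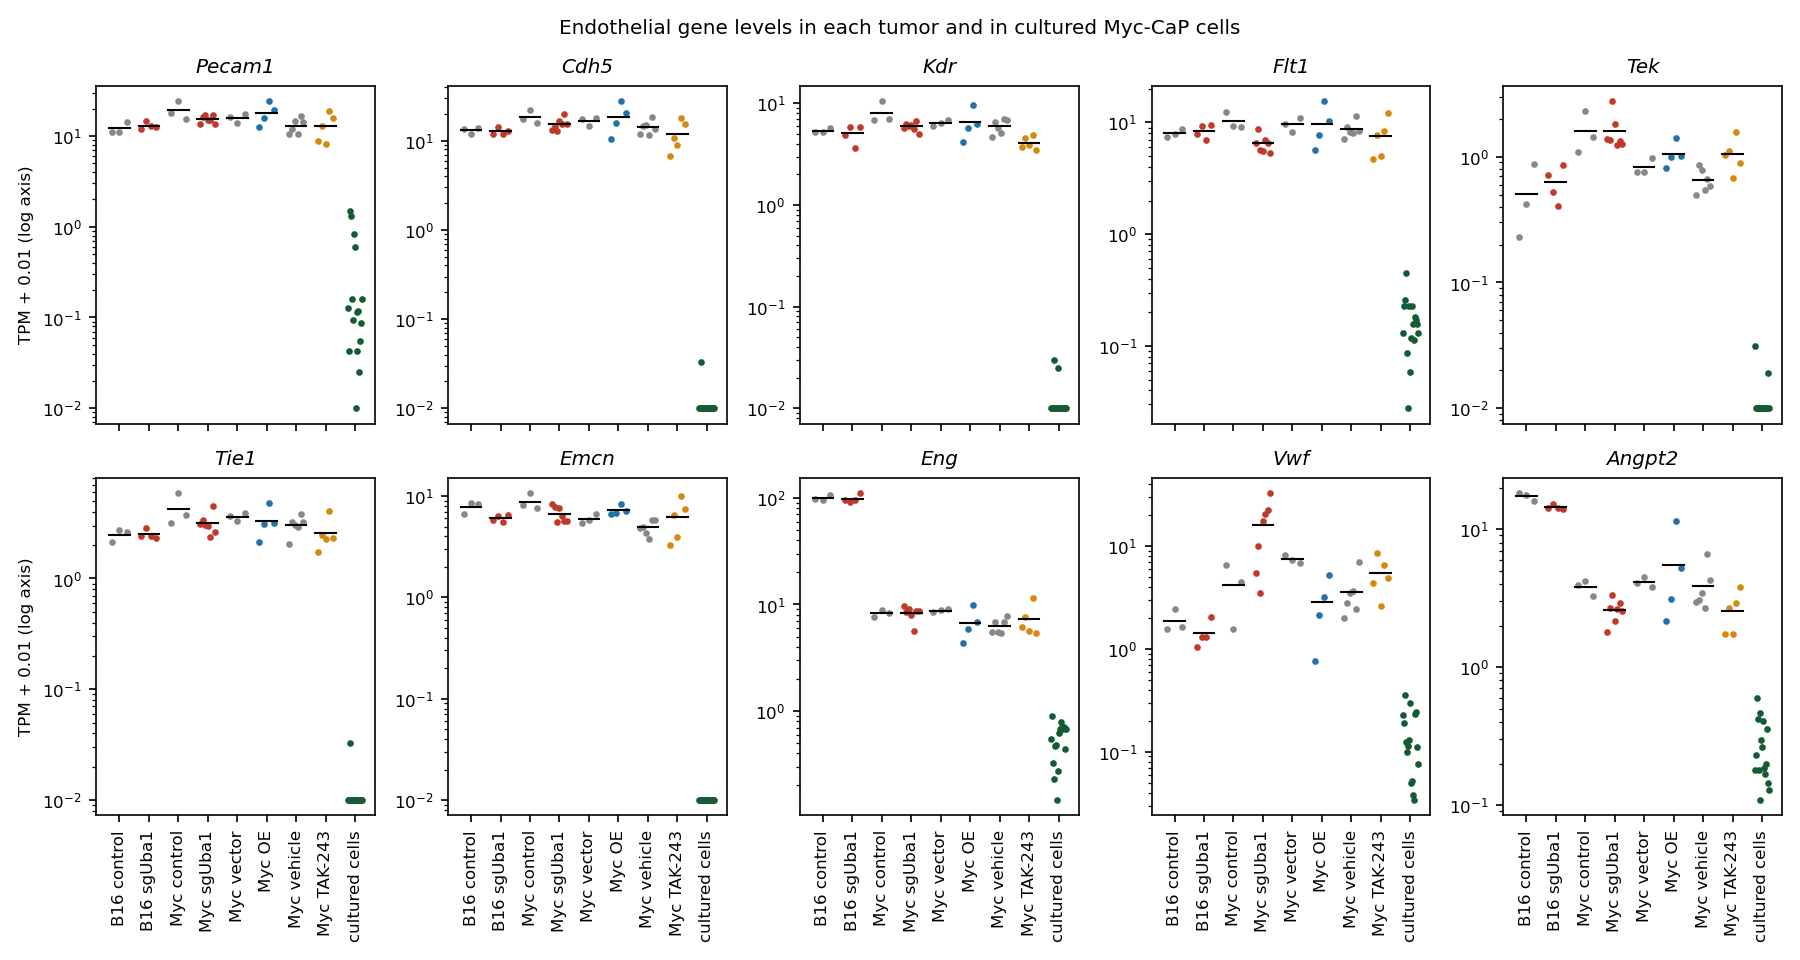
Transcripts-per-million (TPM, plus 0.01, log axis) of the 10 endothelial genes. Points are libraries, black bars are means of the 8 tumor groups, and the last column holds the 16 Myc-CaP cultures, of which all stood below all 28 Myc-CaP tumors for every gene. Eng and Angpt2 stood apart in the B16-BL6 tumors.

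Levels can be compared between genes on TPM, which the authors scaled for transcript length. In the vehicle-treated Myc-CaP tumors the junction genes led, with Cdh5 at 14.2 ± 2.43 TPM (SD, n = 6) and Pecam1 at 13.0 ± 2.45. These SDs are between tumors and do not measure the difference between genes within the same tumors. Cdh5 was above Pecam1 in replicates 1 to 5 and below it in replicate 6. Flt1 followed at 8.68 ± 1.51 TPM, then Eng at 6.31 ± 1.01, Kdr at 6.0 ± 0.979 and Emcn at 4.90 ± 0.776. Angpt2 (3.83 ± 1.48), Vwf (3.54 ± 1.78) and Tie1 (3.03 ± 0.575) came next. This order is that of the group means and was not tested within tumors. Tek, the angiopoietin receptor, was the lowest member in all 8 tumor groups, with means between 0.497 and 1.59 TPM, and its counts were as low as 18 in the shallow Myc-CaP tumors, which makes it the least precisely measured of the 10. Flt1 had a higher mean TPM than Kdr in every group, although the longer and shorter transcripts of Flt1 share reads and its counts are estimates.

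Eng and Angpt2 differed between the tumor models. Eng was 99.6 ± 6.67 TPM in B16-BL6 controls (SD, n = 3) and 8.31 ± 0.682 TPM in Myc-CaP controls (n = 3), which placed this TGF-β family co-receptor first among the members in both B16-BL6 groups. On CPM normalised with TMM factors, the 3 B16-BL6 controls had 205, 207 and 215 CPM of Eng and the 3 Myc-CaP controls 15.3, 17 and 16.8. The groups lay far apart, with a log2 fold change of 3.68 ± 0.090 (SE) and an adjusted p of 6.42e-07 in edgeR's quasi-likelihood fit, adjusted by Benjamini and Hochberg's method over 17114 genes. Angpt2 was likewise higher, at 43.4, 42.8 and 36.2 CPM against 8.94, 8.94 and 7.32, a log2 fold change of 2.28 ± 0.14 (edgeR adjusted p = 1.50e-05). Mcph1, the gene in which Angpt2 lies, had 28.6 ± 3.79 TPM in the B16-BL6 controls and 26.9 ± 3.89 in the Myc-CaP controls and so differed by less than its spread.

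In this comparison 2 members passed the test as higher in B16-BL6 (30.2% of all genes did) and 5 as lower (29.7% of all genes). The 5 were the junction genes Pecam1 (log2 fold change -0.52) and Cdh5 (-0.44) and the receptors Kdr (-0.50), Tek (-1.52) and Tie1 (-0.67), with edgeR adjusted p values from 0.0108 to 0.043. Flt1, Emcn and Vwf did not pass. Groups did not overlap for the same 7 genes, where 35.3% of genes were higher and 33.2% lower without overlap. The calls changed with the Myc-CaP control used. Against the 3 empty vector tumors, Pecam1, Cdh5 and Tie1 still passed as lower and Eng and Angpt2 as higher. Kdr (edgeR adjusted p = 0.0902) and Tek (0.202) did not pass there, while Vwf passed as lower (log2 fold change -1.83, edgeR adjusted p = 6.95e-06) and Emcn as higher (0.53, adjusted p = 0.0165). Against the 6 vehicle tumors, which were sequenced to a like depth, Eng and Angpt2 passed as higher together with Emcn (log2 fold change 0.66, edgeR adjusted p = 0.00244), and Pecam1, Cdh5, Kdr, Tek and Tie1 did not pass. When each of the 6 control tumors was left out in turn, Eng, Angpt2 and Cdh5 passed every time, while Pecam1 and Kdr lost the call in 3 fits, Tek in 4 and Tie1 in 5. Without Myc-CaP control replicate 2, Vwf (log2 fold change -1.43, edgeR adjusted p = 0.00204) and Flt1 (-0.35, adjusted p = 0.0493) also passed as lower. Without B16-BL6 control replicate 1 or 2 only 3 members passed, and without replicate 4 there were 4. The line, the mouse strain and the sex of the host differed together between the models and cannot be told apart.

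Among 20 other genes of the endothelial surface and junctions, 2 passed as higher in B16-BL6 controls (Egfl7 and Ecscr) and 8 as lower, with a median log2 fold change of -0.40 against -0.0033 over all genes. Lower were, for example, Rasip1 (-1.22), Shank3 (-1.11), Nos3 (-0.92), the endothelial nitric oxide synthase, and Robo4 (-0.72), a guidance receptor. Eng thus stood at the other side of 0 from most genes of that list. The ligands and co-receptors of the VEGF and angiopoietin systems had 6 of 10 tested genes higher and 1 lower, among them Nrp2 (3.15), a VEGF co-receptor, Vegfc (3.54), Pgf (3.51) and Vegfb (1.01). The 7 melanocyte genes were all higher in B16-BL6 (summed 13742 to 15970 CPM against 17.3 to 27.4), and the part of melanoma cells in the Eng and Angpt2 signal was not tested.

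Uba1 itself was checked first in each Uba1 comparison. In B16-BL6 tumors it was at 409.5, 455 and 414 CPM in the controls and at 208, 220.2, 228 and 247 CPM in the 4 sgUba1 tumors (log2 fold change -0.92 ± 0.074, edgeR adjusted p = 2.94e-04). In Myc-CaP tumors the controls had 319.6, 325 and 337 CPM. Replicates 1 to 3 labelled sgUba1 had 197, 202 and 211 CPM, but replicates 4 to 7 had 373, 361, 368 and 383, above every control. The study determined depletion by Sanger sequencing and immunoblot, so RNA alone does not show whether these 4 tumors kept the protein. The labels do not say which of the study's Uba1 guides a tumor carried. Values of the Myc-CaP sgUba1 comparison are therefore given with these 4 libraries and without them. In the vector tumors Uba1 was at 310.4, 278 and 292 CPM with the empty vector and 731, 631, 722 and 747 with OE.

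In B16-BL6 tumors labelled sgUba1, 0 of the 10 endothelial genes passed the edgeR test, where 0.724% of 17539 genes did. Of the 10, 8 had a log2 fold change below 0, with a median of -0.071 over the members and 0.012 over all genes, and 3 had an unadjusted p under 0.05. That level was common: the highest of the 3, 0.0475 for Vwf by edgeR, ranked 2754 among the 17539 genes. DESeq2 called 1 member, Angpt2, among 532 genes, where edgeR called 127. The angiopoietin Angpt2 had 44.3, 43.8 and 37.6 CPM in the controls and 31.7, 35.8, 34.8 and 32.4 CPM in the sgUba1 tumors. All 4 sgUba1 tumors lay below all 3 controls, with a log2 fold change of -0.32 ± 0.081 that missed the threshold (edgeR adjusted p = 0.122). The same held for the sialomucin gene Emcn, at 6.62, 8.76 and 7.79 against 5.42, 6.35, 5.48 and 6.35 CPM (log2 fold change -0.39 ± 0.13, edgeR adjusted p = 0.204). Lower without overlap were these 2 of 10 members and 8.01% of all genes. Vwf gave -0.54 ± 0.24 with overlapping groups, while the 7 platelet and megakaryocyte genes, none of which passed, summed to 11.3 to 13.7 CPM in controls and 14.4 to 19.4 CPM in sgUba1 tumors. The part of platelets was not tested. Pecam1, Cdh5, Tie1, Flt1 and Eng lay between -0.077 and 0.010. Eng, so high in this model, was 214.9 ± 7.78 CPM in controls (SD, n = 3) and 205 ± 15.4 in sgUba1 tumors (n = 4).

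In Myc-CaP tumors labelled sgUba1, 0 of 10 members passed, where 3.04% of 16202 genes did. The median log2 fold change of the members was -0.35, against 0.0012 over all genes, with 3 of 10 above 0 and 4 at an unadjusted p under 0.05. That level was common: the highest of the 4, 0.0326 for Vwf by edgeR, ranked 3061 among the 16202 genes. DESeq2 called 2 members, Flt1 and Vwf, among 1862 genes, where edgeR called 492. Flt1, the decoy-type VEGF receptor, was at 53.5, 38.1 and 39.2 CPM in controls and at 25.4, 34.9, 22.2, 26.0, 33.7, 30.1 and 24.1 CPM in the 7 tumors labelled sgUba1. Every one of the 7 was below every control, and the log2 fold change of -0.64 ± 0.17 just missed the threshold (edgeR adjusted p = 0.0629). When each of the 10 tumors was left out in turn, Flt1 passed in 1 of the 10 fits, without replicate 2 labelled sgUba1 (edgeR adjusted p = 0.0454). Kdr, the signalling VEGF receptor, gave -0.43 ± 0.15 (edgeR adjusted p = 0.121), with 27.0, 38.6 and 27.2 CPM in controls and 19.8 to 27.6 CPM (median 22.5) in the others.

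The 3 Myc-CaP controls had 9.02, 9.06 and 7.40 CPM of Angpt2, and the 7 tumors labelled sgUba1 lay from 3.65 to 6.96 CPM (median 5.91), again without overlap (log2 fold change -0.54 ± 0.19, edgeR adjusted p = 0.133). Groups apart on the lower side were seen for 2 of 10 members, Flt1 and Angpt2, and for 5.38% of all genes. Without the 4 libraries whose Uba1 stood above the controls, 0 of 10 members and 1 of 15679 genes passed, with 5 members at an unadjusted p under 0.05. How many of all genes reached that level was not counted. The log2 fold changes were then -0.67 ± 0.21 for Flt1, -0.66 ± 0.26 for Angpt2 and -0.55 ± 0.17 for Kdr. Pecam1 gave -0.28 ± 0.15 with the 4 libraries and -0.45 ± 0.17 without them, and Cdh5 -0.23 ± 0.20 and -0.61 ± 0.14. The edgeR adjusted p values of these 5 genes without the 4 libraries ran from 0.134 to 0.236. The median over the 10 members was -0.48, against 0.0058 over all genes. Eng gave 0.0012 ± 0.13 with the 4 libraries and -0.028 ± 0.11 without them.

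Vwf was the most variable member. In Myc-CaP controls it was at 33.6, 7.65 and 21.5 CPM. In tumors labelled sgUba1, replicates 1 to 3 had 20.5, 45.9 and 13.5 CPM and replicates 4 to 7 had 90.1, 107.1, 107.4 and 159 CPM. The 4 highest Vwf libraries were thus the 4 whose Uba1 stood above the controls. The log2 fold change was 1.89 ± 0.77 (edgeR adjusted p = 0.173) with them and 0.34 ± 0.61 (adjusted p = 0.804) without them. Of the platelet and megakaryocyte genes, another source of Vwf, 4 of 7 passed the filter on low counts, none was at 0 in every library, and their sum was 9.70 to 18.1 CPM in controls and 10.9 to 14.1 CPM in the tumors labelled sgUba1. The part of platelets in the Vwf values was not tested.

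The sgUba1 effect was also compared between the models in a fit of 17 tumors, in which the change in Myc-CaP was subtracted from that in B16-BL6. None of the 10 members passed (1.52% of 17513 genes did). The differences nearest to it were 0.63 ± 0.23 for Flt1 (edgeR adjusted p = 0.159) and -2.43 ± 0.91 for Vwf (edgeR adjusted p = 0.172), and for Emcn the difference was 0.0098 ± 0.25. At an unadjusted p under 0.05 there were 2, Flt1 and Vwf, and how many of all genes reached that level was not counted. DESeq2 called 0 members among 1197 genes. Without the 4 libraries 0 members passed as well, with differences of 0.67 for Flt1 (edgeR adjusted p = 0.175), -0.89 for Vwf (adjusted p = 0.539) and 0.026 for Emcn.

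With Uba1 OE, 0 of 10 members passed, where only 0.0269% of 14853 genes did (4 genes). The median log2 fold change was 0.083 and 7 of 10 members were above 0. Vwf was at 38.2, 35.9 and 31.9 CPM with the empty vector and at 4.66, 9.55, 16 and 24.2 CPM with OE. All 4 OE tumors were below all 3 controls (log2 fold change -1.38 ± 0.43, edgeR adjusted p = 0.177), the 1 member of 10 apart on this side, as were 10.1% of all genes. It was also the 1 member with an unadjusted p under 0.05 (0.0123 by edgeR, rank 1026 among the 14853 genes). DESeq2 called it as well, as the 1 member among 723 genes. The OE tumors spread widely and together: replicate 3 had the highest value of all 4 for Pecam1 (50.1 CPM), Cdh5 (66.8), Flt1 (66.5) and Angpt2 (25.9), and replicate 1 the lowest (20.1, 28.7, 25.8 and 5.16 CPM). None of 5 red cell genes tested passed, with summed levels of 254.6 to 544 CPM with OE against 84.6 to 176 CPM with the empty vector. Of 8 skeletal muscle genes 5 were tested and none passed, and the sums were 10.3 to 140.2 against 7.87 to 10.2 CPM. Their part in these values was not tested.

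**Figure D2:**
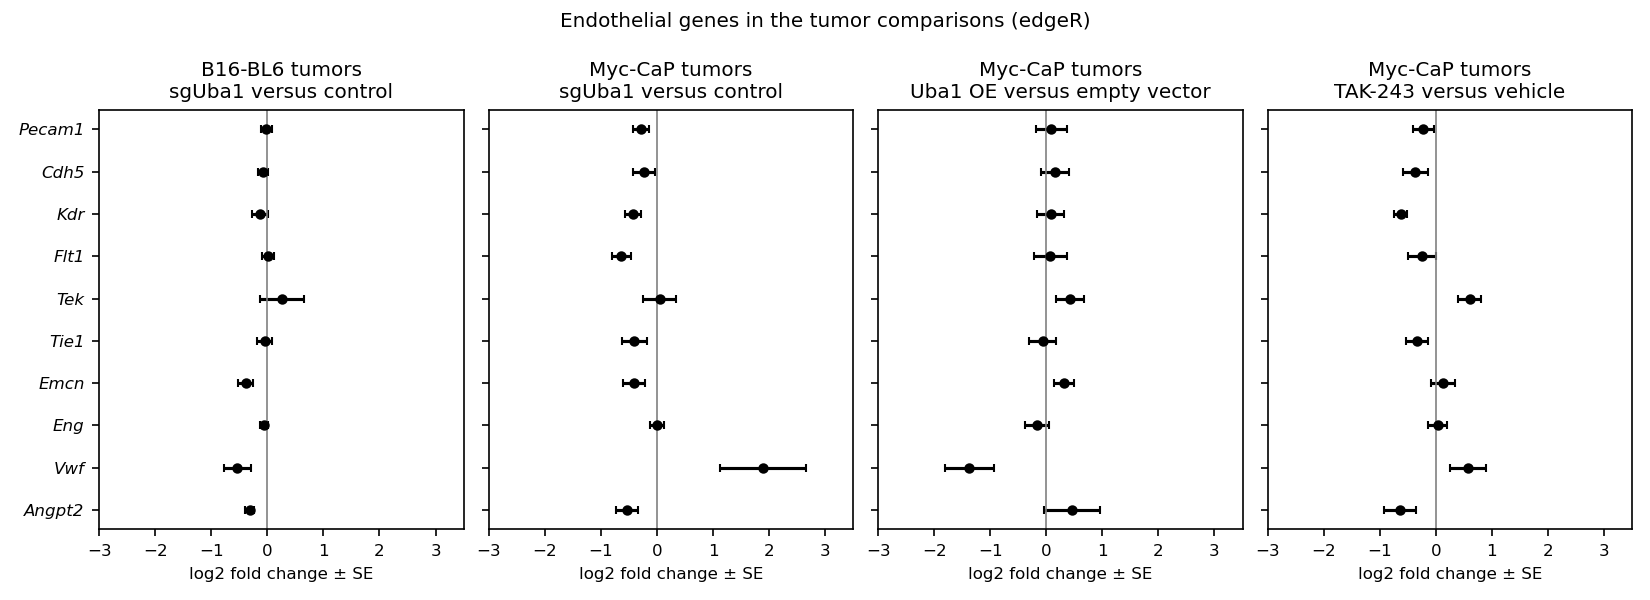
Log2 fold change of each endothelial gene with its SE (bars) in the 4 tumor comparisons, by edgeR. Kdr with TAK-243 stood at -0.63, Flt1 in Myc-CaP tumors labelled sgUba1 at -0.64, and Vwf at 1.89 there and -1.38 with OE, and none of the points shown passed the adjusted threshold.

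With TAK-243, 0 of 10 members passed, where 0.145% of 17299 genes did. Kdr came closest. Its level was 18.7, 25.3, 22.3, 20.2, 29.1 and 25.5 CPM in the 6 vehicle tumors and 13.3, 16.6, 15.0, 16.7 and 14.4 CPM in the 5 treated tumors. The highest treated tumor was below the lowest vehicle tumor, the log2 fold change was -0.63 ± 0.12, and the edgeR adjusted p was 0.0645. It was the 1 member of 10 apart on this side, as were 1.15% of all genes. The call depended on the test, since DESeq2 gave an adjusted p of 1.95e-04 for Kdr and edgeR without the filter on low counts gave 0.0493. Over all genes DESeq2 called 558, and edgeR called 25 with the filter and 45 without it. Leaving out each tumor in turn, Kdr passed in 1 of 11 fits, without TAK-243 replicate 5 (edgeR adjusted p = 0.0457). Flt1 was not apart, at 31.2 to 51.9 CPM (median 34.9) with vehicle and 18.7 to 55.2 CPM (median 31.3) with TAK-243.

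Angpt2 and its receptor Tek lay on opposite sides of 0 with TAK-243. Tek was at 1.36 to 2.36 CPM with vehicle and 1.93 to 4.07 CPM with TAK-243 (log2 fold change 0.60 ± 0.20, edgeR adjusted p = 0.204). Angpt2 was at 6.94, 6.82, 7.80, 6.14, 15.9 and 9.32 CPM with vehicle and 3.60, 5.65, 3.90, 5.77 and 9.21 CPM with TAK-243 (log2 fold change -0.64 ± 0.29, edgeR adjusted p = 0.324). At an unadjusted p under 0.05 there were 3 members, Kdr, Tek and Angpt2. The highest of the 3, 0.0446 for Angpt2 by edgeR, ranked 2376.5 among 17299 genes. The junction genes gave -0.22 ± 0.19 for Pecam1 and -0.36 ± 0.23 for Cdh5, and Eng 0.031 ± 0.17. Treated replicates 1 and 3 were the 2 lowest of all 11 tumors for Pecam1, Cdh5 and Flt1.

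Ratios within a library do not depend on how many endothelial cells a tumor held, if both genes come from those cells, and 2 were compared in 4 comparisons each. The log2 ratio of Angpt2 to Tek counts was 2.17 ± 0.511 (SD, n = 6) with vehicle and 0.93 ± 0.547 (n = 5) with TAK-243, a difference of -1.24. The two-sided exact permutation p was 0.00866 (the smallest possible is 0.00216) and 0.0693 after Benjamini-Hochberg adjustment over the 8 tests, so the difference did not pass the correction. The ranges were 1.52 to 2.91 and 0.42 to 1.79, with some overlap. In the other 3 comparisons the ratio was also lower in the second group, by values of -0.72 (B16-BL6 sgUba1), -0.63 (Myc-CaP sgUba1) and -0.21 (OE), with adjusted exact permutation p values of 0.533, 0.267 and 0.849. The Flt1 to Kdr log2 ratio differed by between -0.22 and 0.28, with adjusted exact permutation p values from 0.229 to 1.0. Without the 4 Myc-CaP libraries whose Uba1 stood above the controls, the differences there were -0.80 for Angpt2 to Tek and -0.15 for Flt1 to Kdr, against -0.63 and -0.22 with them, with unadjusted exact permutation p values of 0.2 and 0.8 where the smallest possible is 0.1. With 3 against 4 tumors the smallest exact p is 0.0286.

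**Figure D3:**
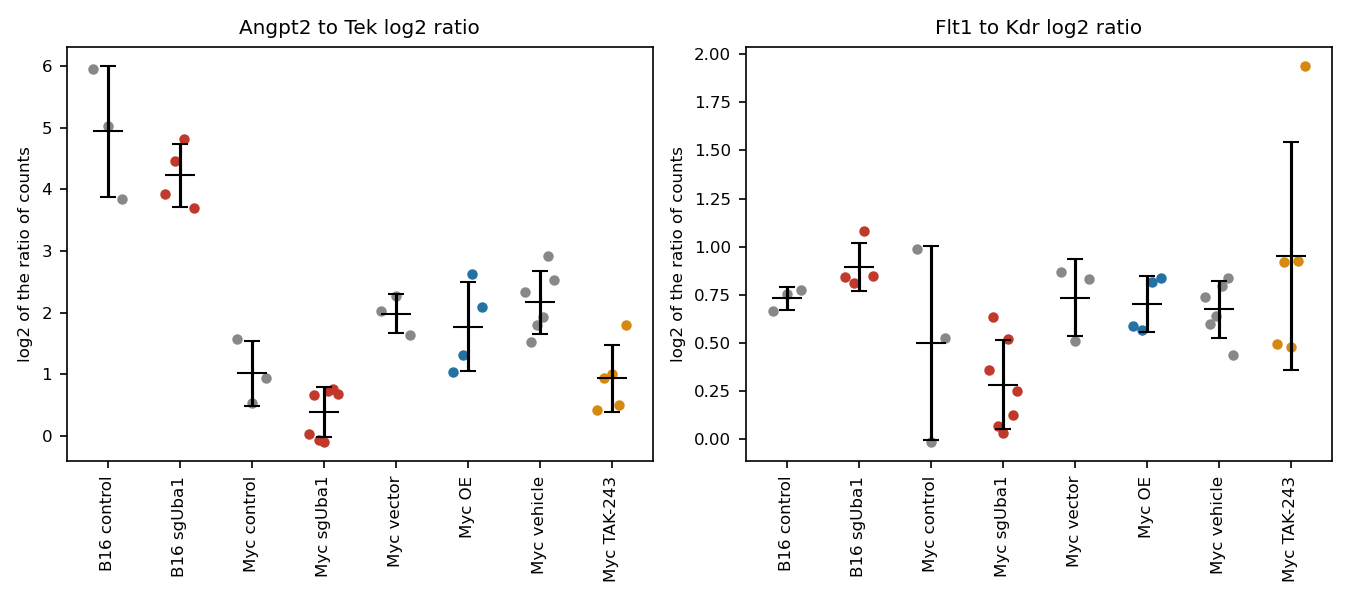
Log2 ratio of counts of Angpt2 to Tek (left) and Flt1 to Kdr (right) in each tumor, by group, with mean and SD (bars). The Angpt2 to Tek ratio was highest in B16-BL6 tumors (mean 4.94 in controls) and lower with TAK-243 (mean 0.93) than with vehicle (mean 2.17).

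The other genes of the vessel lists gave few calls in the 4 Uba1 and TAK-243 comparisons. None of the 20 other pan-endothelial genes passed in any of them. The highest by level, Cd93 and Ptprb, a receptor phosphatase that acts on Tek, gave -0.032 and -0.25 in Myc-CaP tumors labelled sgUba1 and -0.38 and 0.15 with TAK-243. The list's median log2 fold changes were 0.026 in B16-BL6 sgUba1, -0.22 in Myc-CaP sgUba1, 0.095 with OE and -0.087 with TAK-243, beside -0.071, -0.35, 0.083 and -0.24 for the members. Without the 4 libraries whose Uba1 stood above the controls, none of the 20 passed in Myc-CaP sgUba1, with a median of -0.34, and Cd93 and Ptprb gave -0.32 and -0.36. Among ligands and co-receptors, 2 of 11 passed in Myc-CaP tumors labelled sgUba1 with all 7 tumors, and 0 of 10 tested passed without the 4 libraries. With all 7, Angpt1, the ligand that activates Tek, rose from 0.463 to 1.39 CPM on average (log2 fold change 1.55 ± 0.35, edgeR adjusted p = 0.0426), and Vegfb, a ligand of Flt1, fell from 29.0 to 17.6 CPM (log2 fold change -0.72 ± 0.13, edgeR adjusted p = 0.0239). Without the 4 libraries Angpt1 gave 1.63 ± 0.44 (edgeR adjusted p = 0.152) and Vegfb -0.89 ± 0.14 (adjusted p = 0.102). Vegfa, named after its values were seen, did not pass, at -0.88 (edgeR adjusted p = 0.141) with them and -0.50 (adjusted p = 0.424) without them. No ligand or co-receptor passed in the other 3 comparisons. In cultured sgUba1 cells 5 genes of this list were tested, with 0 above 0 and a median log2 fold change of -0.42. Of the 5, 2 passed as lower, as did 19.9% of all genes there. The part of tumor cells in the ligand values of the tumors was not tested.

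Of 13 genes of tip cells and sprouting, none passed in the 4 comparisons. With TAK-243 their median log2 fold change was -0.42, against 0.013 over all genes, with 2 of 13 above 0 and 5 at an unadjusted p under 0.05. Among all 17299 genes of that comparison, an edgeR p of 0.0446 stood at rank 2376.5. The highest by level, the collagens Col4a1 and Col4a2, gave -0.34 and -0.28. Among genes picked after their values were seen, Apln, a peptide of tip cells, gave -1.82 (edgeR adjusted p = 0.115), Esm1 gave -1.23 (adjusted p = 0.121) and the Notch ligand Dll4 gave -0.74 (adjusted p = 0.207). Dll4 belongs to the vessel Notch list. Its 9 tested genes ran from -0.74 to 0.60 with TAK-243 (median -0.20), and 3 were above 0. In Myc-CaP sgUba1 the tip cell median was -0.18, with 2 of 13 above 0. Without the 4 libraries whose Uba1 stood above the controls it was -0.21. In B16-BL6 sgUba1 the tip cell median was -0.047 (5 of 13 above 0) and with OE 0.16 (9 of 13 above 0). The 12 hypoxia genes were all below 0 with TAK-243 (median -0.41), where 52.4% of all genes were above 0, and none of them passed. In Myc-CaP sgUba1, 9 of 12 were below 0 (median -0.52, or -0.24 without the 4 libraries). In B16-BL6 sgUba1, 9 of 12 were below 0 as well (median -0.20), while with OE 8 of 12 were above 0 (median 0.25). None passed in these comparisons. In cultured sgUba1 cells 7 of 10 hypoxia genes tested passed as lower (19.9% of all genes did), 1 was above 0 and the median was -0.39. In cultured cells given TAK-243, 5 of 10 passed as higher and 4 as lower (36% and 37.2% of all genes), with a median of -0.023. The part of tumor cells in the hypoxia values of the tumors was not tested. Pericyte and smooth muscle genes had 1 of 11 tested above 0 with TAK-243 (median -0.35), with Rgs5, a pericyte gene, at -0.52 (edgeR adjusted p = 0.189).

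Myeloid genes were also followed, since Pecam1 is found on leukocytes. In Myc-CaP tumors labelled sgUba1, 12 of 13 were tested and 3 passed as higher (Adgre1 at 1.15, Cd68 at 0.83 and C1qa at 0.82 on the log2 scale), with summed levels of 477 to 792 CPM against 273 to 554 CPM in controls. Without the 4 libraries whose Uba1 stood above the controls none of 11 tested passed, and Adgre1 gave 0.97 ± 0.25, Cd68 0.75 ± 0.18 and C1qa 0.87 ± 0.21 (edgeR adjusted p from 0.134 to 0.149). With TAK-243, 13 of 13 were tested and 3 passed as higher, the neutrophil genes S100a8 (3.63) and S100a9 (4.03) and the integrin gene Itgam (0.82), with sums of 281 to 547 against 234 to 321 CPM. In B16-BL6 tumors labelled sgUba1, 12 were tested, none passed, and the sums were 238 to 282.5 against 141.9 to 229 CPM. No myeloid gene of the list was at 0 in every library of these comparisons, and their part in the endothelial values was not tested.

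The members varied together from tumor to tumor. Log2 CPM was centred on the mean of each of the 8 groups, and each member's deviations were compared with the mean deviation of the other 9 over 35 tumors, as a description in which all genes share the libraries and their normalisation. Pearson's r was 0.90 for Pecam1 and Cdh5, 0.76 for Kdr and Flt1, 0.75 for Angpt2, 0.73 for Tie1, 0.66 for Eng and 0.64 for Emcn. It was lower for Vwf (0.33) and Tek (0.30). Spearman's rho was 0.83 for Pecam1, 0.84 for Cdh5, 0.37 for Vwf and 0.34 for Tek. Without the 2 tumors farthest from the median, r was 0.85 for Pecam1, 0.88 for Cdh5, 0.62 for Kdr, 0.66 for Flt1, 0.22 for Vwf and 0.21 for Tek.

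Within single experiments the picture varied. In the 7 vector and OE tumors r lay at 0.70 for Vwf and between 0.84 and 0.98 for the other 9 members. In the 10 Myc-CaP guide tumors it was 0.99 for Cdh5 and 0.70 for Pecam1 but 0.069 for Emcn, -0.0086 for Eng and -0.22 for Tek. All tumors labelled sgUba1 in this model were centred on their shared mean, although their replicates differed in Uba1 and Vwf. The part of that split in these values, and in those over all tumors, was not tested. No r was computed without the libraries whose Uba1 stood above the controls. In the 7 B16-BL6 tumors it was 0.90 for Emcn and 0.88 for Flt1 and -0.24 for Angpt2, the gene that was so much higher in that model. In the 11 vehicle and TAK-243 tumors it ran from 0.40 for Vwf to 0.95 for Pecam1.

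**Figure D4:**
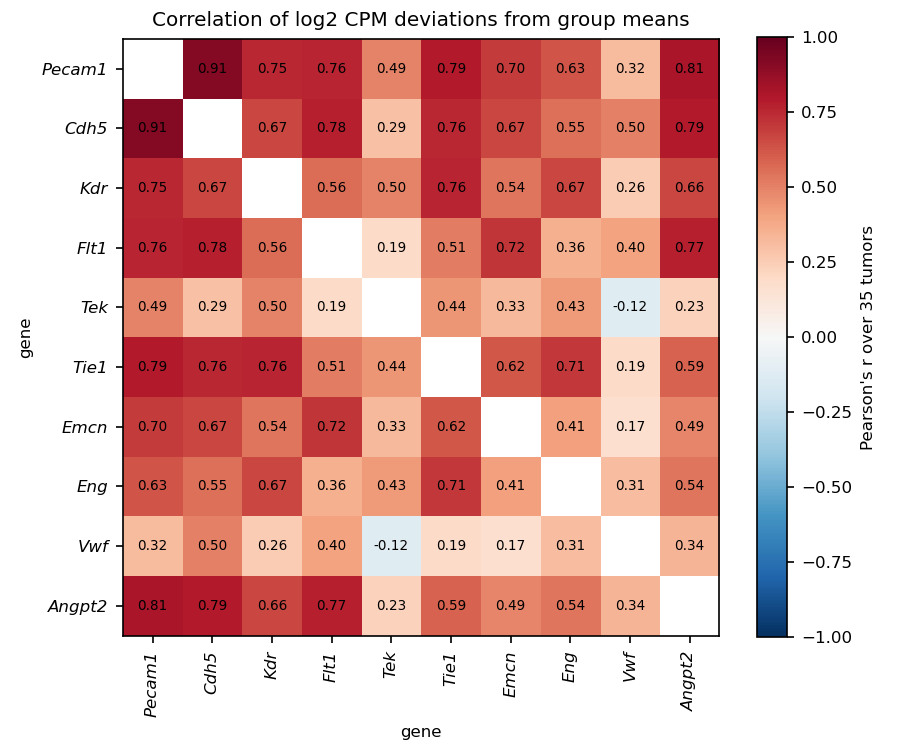
Pearson's r between pairs of endothelial genes over 35 tumors, on log2 CPM centred within each of the 8 groups. Pecam1 and Cdh5 formed the closest pair (0.91), while Vwf and Tek had the lowest value (-0.12).

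Over 15496 other genes with a mean of at least 1 CPM, those whose deviations were most like the mean of the 10 members included Cd93 (r = 0.91), the basement membrane collagens Col4a1 and Col4a2 (0.90 each), Mgll (0.89), the sphingosine phosphate receptor S1pr1 (0.87), Sparcl1 (0.87), Ptprm (0.86), Robo4 (0.86) and Arap3 (0.86). The median r over all those genes was 0.0076. The likeness also ran over whole lists. The median was 0.65 for the 20 other pan-endothelial genes (range 0.26 to 0.91), 0.64 for 10 measured pericyte and smooth muscle genes, 0.55 for 13 tip cell genes, 0.49 for 13 endothelial transcription factors, 0.44 for 5 red cell genes, 0.38 for 12 myeloid genes, 0.013 for 12 hypoxia genes and -0.27 for 7 skeletal muscle genes.

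In cultured Myc-CaP cells, 5 members had enough counts to be tested in at least 1 of 2 comparisons, which were added after their values in cells were seen and which carried IFN-γ as a term. The counts are small. With 50 nM TAK-243, Pecam1 had 48 and 28 counts without IFN-γ and 25 and 20 with it, against 1 and 1, and 5 and 3, in the cells without TAK-243. All 4 treated cultures were above all 4 others, as for 29.9% of genes, and the log2 fold change was 3.57 ± 0.44 (edgeR adjusted p = 1.23e-07). Angpt2 rose as well, from 4 to 8 counts to 11 to 22 counts (log2 fold change 1.33 ± 0.38, edgeR adjusted p = 0.00321), and Flt1 rose by 1.13 ± 0.47 on the log2 scale (edgeR adjusted p = 0.0335) with groups that overlapped, a call lost in 4 of the 8 fits that left out 1 culture (without untreated replicate 1, IFN-γ replicate 2, TAK-243 replicate 2 or TAK-243 plus IFN-γ replicate 1, edgeR adjusted p from 0.101 to 0.173). Eng fell from 17 to 30 counts to 3 to 11 counts (log2 fold change -1.44 ± 0.35, edgeR adjusted p = 8.59e-04). These 4 of 4 tested members passed where 73.2% of 14551 genes did, so the count says little about them. The treated cells' Pecam1 stayed at 1.49 TPM or less, while the 5 TAK-243 tumors had 8.07 to 18.7 TPM and the 6 vehicle tumors 10.5 to 16.5 TPM.

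In sgUba1 cells, 1 of 4 members tested passed, Vwf, where 38.7% of 15530 genes did. Uba1 had a log2 fold change of -1.0 ± 0.054. Vwf had 2 and 3 counts in control guide cells and 1 and 2 with IFN-γ, against 23 and 17 counts in sgUba1 cells and 10 and 10 with IFN-γ. The groups did not overlap, as for 17.1% of genes on this side, and the log2 fold change was 2.60 ± 0.41 (edgeR adjusted p = 2.99e-04). The call was lost by limma on log2(TPM + 1), at 0.16 with an adjusted p of 0.0542. Flt1, Eng and Angpt2 gave 0.046 ± 0.27, -0.14 ± 0.18 and -0.36 ± 0.30. The control guide cells were the lowest, with at most 0.0977 CPM of the library total. Untreated cells, which carried no guide, had 4 and 7 counts (0.263 and 0.472 CPM), against 0.489 and 0.663 CPM in sgUba1 cells. With IFN-γ the cells without a guide had 6 and 9 counts (0.381 and 0.637 CPM), above the 0.278 and 0.284 CPM of sgUba1 cells. The highest Vwf level in any culture was 0.344 TPM, and the lowest Myc-CaP tumor had 0.745 TPM.

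**Figure D5:**
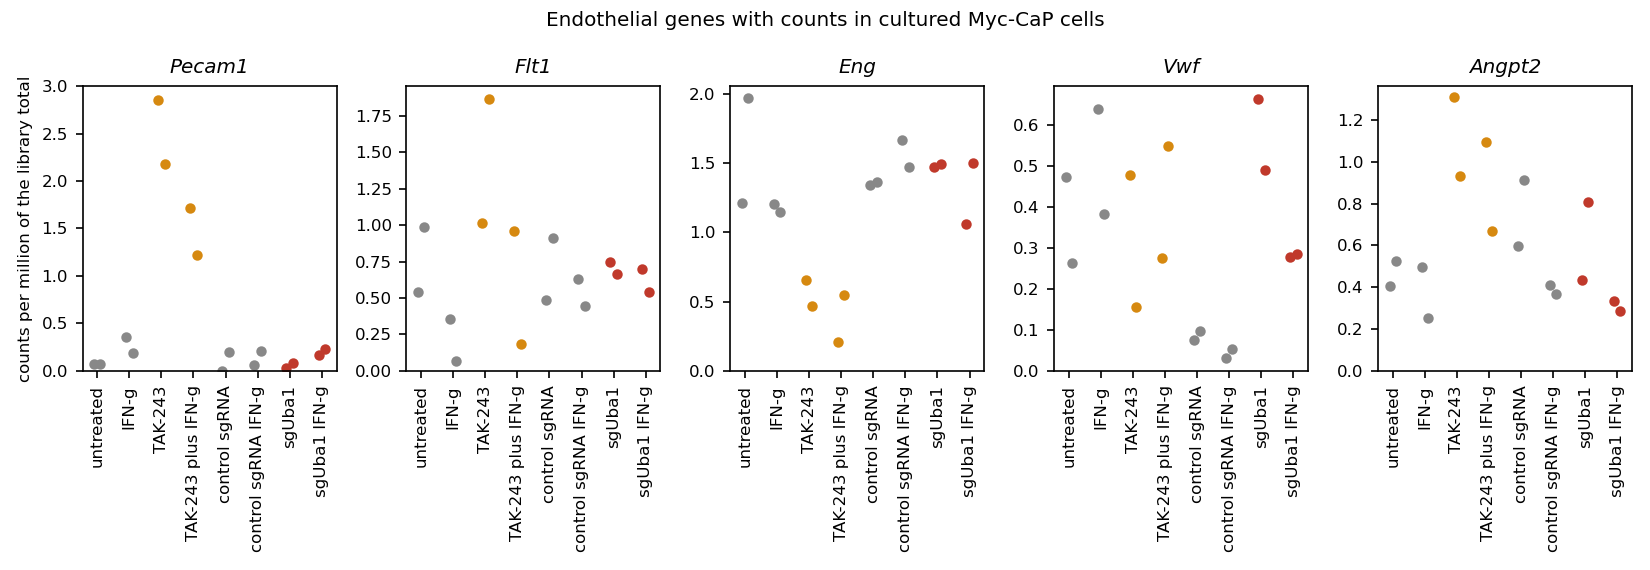
CPM of the library total (linear axis from 0) for the 5 endothelial genes detected in cultured Myc-CaP cells, with 2 cultures per group. Pecam1 was higher in all 4 TAK-243 cultures than in the other 12, and Vwf was higher in the sgUba1 cultures than in the control guide cultures. Against cultures with neither guide nor TAK-243, Vwf in sgUba1 cultures was higher without IFN-γ (0.489 and 0.663 against 0.263 and 0.472 CPM). With IFN-γ it was lower (0.278 and 0.284 against 0.381 and 0.637 CPM).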

How the data were processed

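RNA-seq of 51 libraries (35 tumors and 16 cultures) was analysed. The authors deposited, for each library, estimated counts and TPM (transcripts-per-million) per gene. The submitters' processing notes name kallisto and mm10, with versions not given in the sources used here. The labels state poly-A selection and the study's methods rRNA removal, and these could not be reconciled. The labels for cells and tumors share a tissue name, so titles were used to separate them. Estimated counts were rounded. No column without a sample was used (0 such columns).

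Each comparison was fitted over all genes with edgeR 4.0.16 (R 4.3.3; filterByExpr, TMM factors, quasi-likelihood test, Benjamini-Hochberg threshold 0.05). Fits used the groups compared, and cells carried IFN-γ as a term. CPM is counts-per-million after TMM factors, or of the library total where so stated. Ratios used a prior of 0.5 counts and exact permutation tests (scipy 1.17.1). Deviations between tumors used log2 CPM with a prior of 2 counts. Alternatives were RLE factors, DESeq2 1.42.0, no filter, a replicate block, limma 3.58.1 on log2(TPM + 1) and log2(TPM + 0.1), other fits or controls, and leaving out each library. Scripts were tested on simulated data.

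The members and gene lists were chosen with earlier results of these data known. The genes named are all 10 members, Uba1, of each list up to 4 genes past the threshold by smallest p or else up to 3 with the highest mean CPM, and the 10 genes most like the members between tumors, of which 1 is not reported here; other names were picked after their values were seen. The comparisons in cells, the difference of the sgUba1 effects and the fit without the 4 libraries with Uba1 above every control were added after seeing the data. Same-numbered tumors did not deviate together, so the numbers were not taken as pairs. No pair of libraries in a group agreed closely enough to be 1 library, with at most 1.11% of genes at equal counts.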

Additional observations from a re-analysis of the deposited data

Results flagged for a closer look

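Of 50 sets of values (10 members in 5 groups of 4 to 7 tumors), 5 had 1 tumor far from the others, where chance gives about 1 in 20. In Myc-CaP tumors labelled sgUba1, Tie1 was at 12.5 CPM in replicate 6, with the next tumor at 8.45 and the lowest at 6.78. Among vehicle tumors, replicate 5 was highest for both Flt1 (51.9 CPM, next 38.2, lowest 31.2) and Angpt2 (15.9 CPM, next 9.32, lowest 6.14), and replicate 6 for Vwf (31.8 CPM, next 17.9, lowest 9.73). Among TAK-243 tumors, Eng was at 19.4 CPM in replicate 4, with the next at 13.1 and the lowest at 11 CPM.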

How the results depend on the processing

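DESeq2 called more genes in every sgUba1, OE and TAK-243 tumor comparison: 532 against 127 by edgeR in B16-BL6 sgUba1, 1862 against 492 in Myc-CaP sgUba1, 723 against 4 with OE, 558 against 25 with TAK-243 and 1197 against 266 for the difference of the sgUba1 effects, with 1, 2, 1, 1 and 0 members among them. Without the filter on low counts the numbers were 204 in B16-BL6 sgUba1, 33 with OE, 45 with TAK-243 (1 member) and 115 for the difference. limma called 83 genes in B16-BL6 sgUba1 on log2(TPM + 1), and with the pseudocounts 1 and 0.1 it called 206 and 158 in Myc-CaP sgUba1, 0 and 0 with OE, and 12 and 14 with TAK-243. In cells it called 4002 genes against 6007 for sgUba1 with 0.1, and 0 of the members with 1, where Vwf lost its call (0.16, limma adjusted p = 0.0542). In 1 fit of the 17 guide and vector Myc-CaP tumors, 1406 genes passed for sgUba1 and 0 for OE. In the fit of Myc-CaP sgUba1 alone, with 492 genes, leaving out the 4 libraries with Uba1 above every control left 1. The causes were not tested.

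The replicate numbers did not pair the tumors: same-numbered tumors' deviations correlated between -0.18 and 0.31. The replicate block left 2 genes in Myc-CaP sgUba1, 0 with OE, 8 with TAK-243, 11 for the difference of the sgUba1 effects and 6326 between the control models, with 3 members in the last. With the vehicle tumors as the Myc-CaP control 3 members passed.

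Signs turned mainly for values near 0. In B16-BL6 sgUba1, limma (pseudocounts 1 and 0.1) gave 0.090 and 0.097 for Pecam1 and 0.010 and 0.015 for Tie1. In Myc-CaP sgUba1, Eng was -0.00019 without the filter, -0.022 with the block, -0.0080 and -0.011 by limma, -0.00040 in the fit of 17 and -0.028 without the 4 libraries, and Tek -0.00060 by limma with 1. With OE, Flt1 was -0.056 with the block and -0.056 and -0.069 by limma, and Kdr -0.030 and -0.042 by limma. Between the control models, Emcn turned from -0.049 to 0.53 with the empty vector and 0.66 with the vehicle tumors as control, both of which passed. Pecam1 turned there from -0.52, which passed, to 0.0023 with the vehicle tumors, which did not. The Emcn difference of sgUba1 effects was -0.0080 with RLE factors and -0.014 by DESeq2.

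Leaving out each library in turn gave 43 to 320 genes in B16-BL6 sgUba1 (lowest without control replicate 1, highest without sgUba1 replicate 4), 10 to 692 in Myc-CaP sgUba1 (lowest without control replicate 2), 0 to 386 with OE (highest without OE replicate 1), 1 to 299 with TAK-243 (without vehicle replicate 1 and TAK-243 replicate 5), 8438 to 11457 between models, 4959 to 6557 and 10359 to 10518 in cells with sgUba1 and TAK-243, and 29 to 661 for the difference (without B16-BL6 and Myc-CaP control replicate 1). Members called ran from 0 to 1 in Myc-CaP sgUba1 and with TAK-243, 3 to 7 between models and 3 to 4 in TAK-243 cells. Ranges that crossed 0 were, in B16-BL6 sgUba1, Pecam1 -0.084 to 0.053, Flt1 -0.059 to 0.070, Tek -0.081 to 0.85 and Tie1 -0.15 to 0.044. They were, in Myc-CaP sgUba1, Tek -0.16 to 0.39 and Eng -0.050 to 0.059. With OE they were Pecam1 -0.21 to 0.26, Cdh5 -0.11 to 0.32, Kdr -0.19 to 0.23, Flt1 -0.25 to 0.25, Tie1 -0.31 to 0.084 and Angpt2 -0.19 to 0.73. With TAK-243 they were Emcn -0.0077 to 0.27 and Eng -0.15 to 0.094. Between models Emcn ran from -0.15 to 0.072, in sgUba1 cells Flt1 from -0.11 to 0.27 and Eng from -0.20 to 0.021, and for the difference Tek from -0.15 to 0.79 and Emcn from -0.12 to 0.12. The Angpt2 to Tek ratio ran from -0.50 to 0.030 with OE, and the Flt1 to Kdr ratio from -0.48 to 0.028 in Myc-CaP sgUba1 and -0.15 to 0.033 with OE. Where an arm was left with few samples the spread was shared over groups.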
